A study of Mus musculus with 48 samples.

Results

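The genes described here are 48 genes that run mitosis and build the kinetochore, taken by symbol from the 24444 genes of the deposited cortical expression table. All 48 were present and could be tested at every age. By role, 9 act in mitotic entry, 4 form the chromosomal passenger complex, 5 serve the spindle checkpoint, 4 drive anaphase, 8 belong to the centromere and kinetochore, 6 to the spindle, 5 to cytokinesis and 7 to chromosome structure.

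Mitosis begins when the kinase CDK1, bound to A- and B-type cyclins, drives chromosome condensation and spindle assembly. Kinetochores, protein machines built on the centromere of each chromosome, attach chromosomes to spindle microtubules, and the spindle checkpoint holds back the anaphase-promoting complex until every kinetochore is attached. In embryonic cortex, radial glia in the ventricular zone and intermediate progenitors in the subventricular zone divide to give rise to neurons. Neurons no longer divide, and dividing cells of the adult cortex are mainly glial precursors. Most of these genes are transcribed late in the cell cycle, under the DREAM, B-MYB and FOXM1 regulators, through promoter elements that include the CCAAT box and the cell cycle genes homology region (CHR).

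RNA-seq was performed on dissected cortex of male mice at E14.5 and at the ages of 1, 6 and 12 months, with 6 WT and 6 Chd8 V986*/+ animals per age. The background was C57BL/6J, and controls were littermates. Chd8 V986*/+ mice carry 1 copy of a Chd8 allele with stop codons inserted by CRISPR/Cas9 at V986 and E987, in a line that goes back to a single founder. CHD8 is a chromatin remodeler, and the comparisons ask how its reduced dosage and age affect cortical transcription. Expression is given as variance-stabilizing transformation (VST) values, which are on a log2 scale, so that 1 unit stands for about a 2-fold change where expression is high, and for more than that near the floor, the most frequent value of the table, at 2.14. VST values are not scaled for transcript length, so they were compared between mice and not between genes. Differences are in log2 units, and adjp is the Benjamini-Hochberg adjusted p value of limma over all genes tested, with a threshold of 0.1.

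Chd8 itself was lower in Chd8 V986*/+ than in WT mice, with differences of −0.63 (SE 0.08, limma adjp = 0.026) at E14.5, −0.67 (SE 0.05, limma adjp = 3.0e-06) at 1 month, −0.64 (SE 0.04, limma adjp = 1.1e-07) at 6 months and −0.54 (SE 0.06, limma adjp = 0.0026) at 12 months. The genotypes did not overlap in Chd8 at any age. Replicates 1 to 3 and replicates 4 to 6 have equal means over the 8 groups in every gene (largest difference 3.38e-14). At E14.5, WT libraries varied in genes of other regions. The mean VST of 13 midbrain, hindbrain and spinal cord markers ran from 3.88 to 7.71 in WT and from 3.98 to 5.67 in Chd8 V986*/+ embryos, while 8 radial glia markers ran from 11.46 to 11.94 and from 11.50 to 11.88.

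Most promoters of the members held both a CCAAT box and a CHR. RefSeq promoters (build GRCm38.p6, 250 bases before to 50 after the transcription start) were matched by symbol for 40 of the 48 members, with 43 promoters in all, since Bub3, Ect2 and Prc1 have a second start. Ccna2, Cdc25c, Aurkb, Incenp, Spc24, Tpx2, Kif20a and Smc4 had no entry. The letters CCAAT were present on either strand in 33 of the 43 promoters (76.7%), against 37.4% of all 32851 promoters of the table. A CHR, searched as TTTGAA or TTCGAA on either strand, was present in 33 (76.7%), against 19.2%. Both a CCAAT box and a CHR were present in 30 (69.8%), against 7.52%. The E2F-type letters TTTGGCGC and TTTCGCGC were rare, each in 1 of the 43 promoters (2.33%), against 0.514% and 0.323%. Of the 31 promoters of 29 members lower by at least 4 log2 units at 1 month than at E14.5 in WT cortex, 23 held both elements (74.2%), as did 7 of the 12 promoters of the other members (58.3%). Matches may share bases with one another, and a match describes the letters only.

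**Figure D1:**
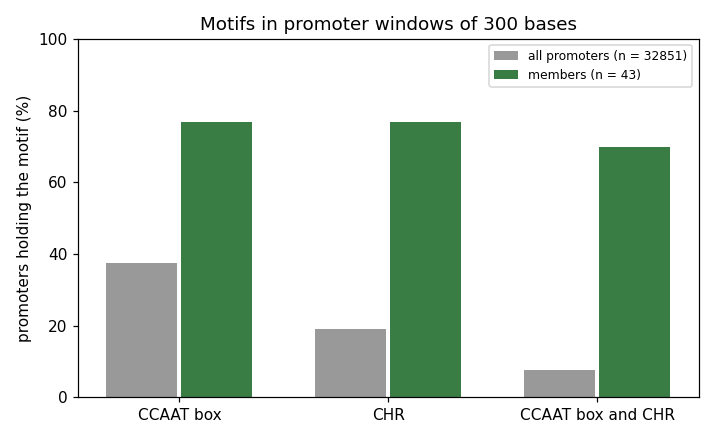
Percentage of promoters (vertical axis) that hold a CCAAT box, a CHR (TTTGAA or TTCGAA) or both, for the 43 promoters of 40 members (green) and all 32851 RefSeq promoters (grey). Both elements together were present in 69.8% of the members' promoters and in 7.52% of all promoters.

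Shown next are the promoters of the 5 members with the largest difference between E14.5 and 1 month in WT cortex, of Cdk1, and of the 3 members whose expression differed least in that direction (170 bases before to 30 after the start, read along the gene). Capitals mark the letters of the CCAAT box and of the CHR given above, on either strand, so that a CCAAT box on the opposite strand reads ATTGG. Top2a lies at chr11:99024160-99024359, minus strand, Mki67 at chr7:135716350-135716549, minus strand, Ube2c at chr2:164769759-164769958, plus strand, Bub1 at chr2:127831830-127832029, minus strand and Ccnb1 at chr13:100786457-100786656, minus strand. The Cdk1 window is chr10:69352883-69353082, minus strand, that of Bub3 chr7:131560200-131560399, plus strand, that of Anln chr9:22389177-22389376, minus strand and that of Pttg1 chr11:43425952-43426151, minus strand.
Top2a: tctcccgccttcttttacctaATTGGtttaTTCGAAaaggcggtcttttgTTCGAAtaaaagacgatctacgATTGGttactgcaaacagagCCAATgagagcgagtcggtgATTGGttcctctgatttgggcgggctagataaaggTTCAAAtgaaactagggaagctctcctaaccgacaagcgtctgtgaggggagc
Mki67: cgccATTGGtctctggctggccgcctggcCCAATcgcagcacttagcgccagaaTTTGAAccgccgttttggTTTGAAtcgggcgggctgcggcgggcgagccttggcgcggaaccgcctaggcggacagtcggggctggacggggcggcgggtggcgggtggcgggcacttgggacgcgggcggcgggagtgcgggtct
Ube2c: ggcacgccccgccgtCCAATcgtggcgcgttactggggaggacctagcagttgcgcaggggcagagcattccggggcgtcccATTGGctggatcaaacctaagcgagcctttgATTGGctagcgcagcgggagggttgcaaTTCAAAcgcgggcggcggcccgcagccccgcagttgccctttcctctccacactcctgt
Bub1: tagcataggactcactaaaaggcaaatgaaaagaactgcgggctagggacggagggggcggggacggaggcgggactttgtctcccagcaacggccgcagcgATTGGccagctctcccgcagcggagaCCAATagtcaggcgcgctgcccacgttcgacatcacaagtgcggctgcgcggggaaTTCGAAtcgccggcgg
Ccnb1: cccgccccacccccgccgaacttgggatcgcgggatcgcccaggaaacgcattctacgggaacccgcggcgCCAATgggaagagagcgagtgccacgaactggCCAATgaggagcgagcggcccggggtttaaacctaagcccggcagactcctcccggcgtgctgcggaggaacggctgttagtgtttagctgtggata
Cdk1: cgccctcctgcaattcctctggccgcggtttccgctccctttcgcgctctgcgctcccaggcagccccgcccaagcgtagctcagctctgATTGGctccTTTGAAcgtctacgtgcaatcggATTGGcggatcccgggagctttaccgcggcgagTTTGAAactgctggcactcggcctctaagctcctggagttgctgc
Bub3: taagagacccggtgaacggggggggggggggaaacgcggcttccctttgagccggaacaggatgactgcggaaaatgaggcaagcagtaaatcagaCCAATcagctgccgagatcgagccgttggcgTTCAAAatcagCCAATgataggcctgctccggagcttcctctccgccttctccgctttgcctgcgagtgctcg
Anln: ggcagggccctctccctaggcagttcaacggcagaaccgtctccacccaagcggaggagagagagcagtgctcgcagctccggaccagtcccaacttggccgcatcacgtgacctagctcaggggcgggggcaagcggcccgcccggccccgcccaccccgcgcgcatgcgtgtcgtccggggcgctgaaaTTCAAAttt
Pttg1: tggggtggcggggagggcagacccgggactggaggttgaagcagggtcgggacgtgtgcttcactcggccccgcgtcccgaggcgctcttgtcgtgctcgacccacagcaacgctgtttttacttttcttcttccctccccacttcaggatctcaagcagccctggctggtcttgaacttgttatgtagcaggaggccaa
Top2a held 4 CCAAT boxes and 3 CHR matches in this window, and Mki67 held 2 of each. Ccnb1 had 2 CCAAT boxes and no CHR match. Anln had no CCAAT box and 1 CHR match, which lies after the start. Pttg1 had none of the letters searched, and Bub3, whose difference with age was the smallest of the members that fell, had 2 CCAAT boxes and 1 CHR match.

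From E14.5 to 1 month, nearly all members fell steeply in WT cortex. Expression fell in 46 of the 48 members, rose in Pttg1 and did not pass the threshold in Anln, whereas 42.3% of all genes tested fell and 43.4% rose. The median difference of the members was −4.54, against 0.0185 over all genes, and 33 members were lower by at least 4, as were 1.23% of all genes. For these 46 members all 6 mice at 1 month lay below all 6 embryos, as for 33.5% of all genes. In Chd8 V986*/+ cortex 46 members fell, Pttg1 rose and Anln was not called, with a median difference of −4.72 (all genes, 42.4% fell and 43.7% rose). All 46 lay below without overlap (all genes, 33.9%), and 34 members were lower by at least 4 (all genes, 1.26%). In bulk tissue, fewer dividing cells and less RNA per cell cannot be told apart.

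Top2a and Mki67, both chromosome structure genes, had the largest falls in WT cortex, while the median difference of that role (−4.08) was smaller in size than those of the other 7 roles (−4.24 to −4.94). VST differences understate change near the floor, so the sizes of the falls given here and below are not strictly comparable between genes. Mki67, which encodes the Ki-67 protein that coats mitotic chromosomes, ranged over 12.52 to 13.49 (median 12.82) in WT embryos and 6.74 to 7.42 (median 7.24) at 1 month, a difference of −5.70 (SE 0.15, limma adjp = 8.4e-15). In Chd8 V986*/+ mice Mki67 ranged over 12.29 to 13.41 (median 13.14) and 7.04 to 7.48 (median 7.19), with a difference of −5.76. Embryos and 1-month mice were thus far apart in both genotypes. Top2a, the topoisomerase that untangles sister chromatids, ranged over 12.76 to 13.63 (median 13.03) in WT embryos and 6.23 to 7.36 (median 7.14) at 1 month. It changed by −6.09 (SE 0.18, limma adjp = 2.9e-14) in WT and by −6.25 in Chd8 V986*/+ mice, the largest fall of the 48 members in each genotype. The condensin I subunits, which compact mitotic chromosomes, split into Ncapg and Ncaph, which changed by −4.08 and −4.56 in WT, and Smc2, Smc4 and Ncapd2, which changed by −3.02, −3.57 and −3.14. SMC2 and SMC4 are also subunits of condensin II. Smc4 stood at 8.36 ± 0.08 (SD, n = 6) in WT mice at 1 month.

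All 9 genes of mitotic entry fell in both genotypes. Cdk1, the kinase that starts mitosis, lay at 9.90 to 10.80 (median 10.21) in WT embryos and at 4.50 to 5.15 (median 4.72) at 1 month, a change of −5.45 (SE 0.15, limma adjp = 2.3e-14). The B-type cyclin Ccnb1 differed by −5.60 (SE 0.14, limma adjp = 5.5e-15) in WT and −5.75 in Chd8 V986*/+ mice. Ccna2 and Ccnb2 changed by −4.52 and −4.67 in WT, and the mitotic kinases Plk1 and Aurka changed by −4.72 and −3.91. Mastl, the Greatwall kinase that keeps a CDK1-opposing phosphatase in check, changed by −2.86. The smallest fall of this role was that of Cdc25b, a phosphatase that activates CDK1, at −1.81 (SE 0.10, limma adjp = 5.4e-11), while its relative Cdc25c changed by −4.07 (SE 0.19, limma adjp = 7.0e-12).

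Within complexes, the size of the fall varied between subunits, a difference that was not tested. In the chromosomal passenger complex, which corrects faulty attachments, the kinase Aurkb changed by −5.31 (in Chd8 V986*/+ mice by −5.92), the survivin gene Birc5 by −4.46 and the borealin gene Cdca8 by −4.76 in WT cortex. Incenp, the scaffold of the same complex, changed by −2.22 (SE 0.10), and its WT range was 10.58 to 11.34 (median 10.73) at E14.5 and 8.45 to 8.68 (median 8.59) at 1 month. Among checkpoint genes, the kinases Bub1 and Ttk changed by −5.61 and −4.39, Bub1b by −4.77 and Mad2l1, which encodes the MAD2 protein, by −2.01. Bub3, the checkpoint protein that brings BUB1 and BUBR1 to kinetochores, changed by only −0.74 (SE 0.05, limma adjp = 9.0e-10). It ranged over 11.07 to 11.34 (median 11.21) in WT embryos and 10.42 to 10.57 (median 10.45) at 1 month. The embryos still lay above all 1-month mice for Bub3, and the median of all genes that fell in this comparison was −0.86.

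At the kinetochore, Cenpf and Cenpe, which link it to microtubules and motors, changed by −5.31 and −4.60 in WT cortex, and Cenpa, the centromeric histone, by −3.34. The NDC80 complex, the main microtubule anchor, has 4 subunits. Ndc80 and Spc25 changed by −4.66 and −4.85, and Nuf2 and Spc24 by −3.31 and −3.32. Knstrn, a kinetochore-associated spindle protein, changed by −4.72. Of the spindle genes, Kif2c and Kif11, motors that depolymerize and slide microtubules, changed by −5.45 and −5.02, the spindle pole gene Aspm by −5.07, and Tpx2, Nusap1 and Kif4 by −4.86, −4.38 and −4.27. All 8 kinetochore and all 6 spindle genes fell in Chd8 V986*/+ mice as well.

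Anaphase and cytokinesis held the exceptions. Ube2c, the ubiquitin-conjugating enzyme of the anaphase-promoting complex, changed by −5.67 in WT and by −5.89 in Chd8 V986*/+ mice. In WT mice the activator Cdc20 changed by −5.12 and Espl1, the separase that cuts cohesin, by −4.43. Pttg1, which encodes securin, the inhibitor of separase, instead ranged over 6.75 to 7.15 (median 7.004) in WT embryos and 8.36 to 8.53 (median 8.41) at 1 month, and rose by 1.46 (SE 0.08, limma adjp = 3.5e-11). The rise in Chd8 V986*/+ mice was 1.66 (SE 0.08, limma adjp = 9.9e-12), again without overlap (all 1-month mice above all embryos in 35% of all genes tested in WT and 35.5% in Chd8 V986*/+). In cytokinesis, the midzone genes Prc1, Kif23 and Kif20a changed by −4.97, −4.24 and −3.28, and Ect2, which activates RhoA at the cleavage furrow, by −5.18. Anln, the actin-binding scaffold of the furrow, lay at 9.49 to 10.34 (median 9.73) at E14.5 and 9.74 to 9.96 (median 9.87) at 1 month in WT mice, with differences of 0.06 (SE 0.11, limma adjp = 0.59) in WT and −0.15 (SE 0.11, limma adjp = 0.20) in Chd8 V986*/+. With quantile normalization the Chd8 V986*/+ difference of Anln was called, at −0.20 (limma adjp = 0.096).

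**Figure D2:**
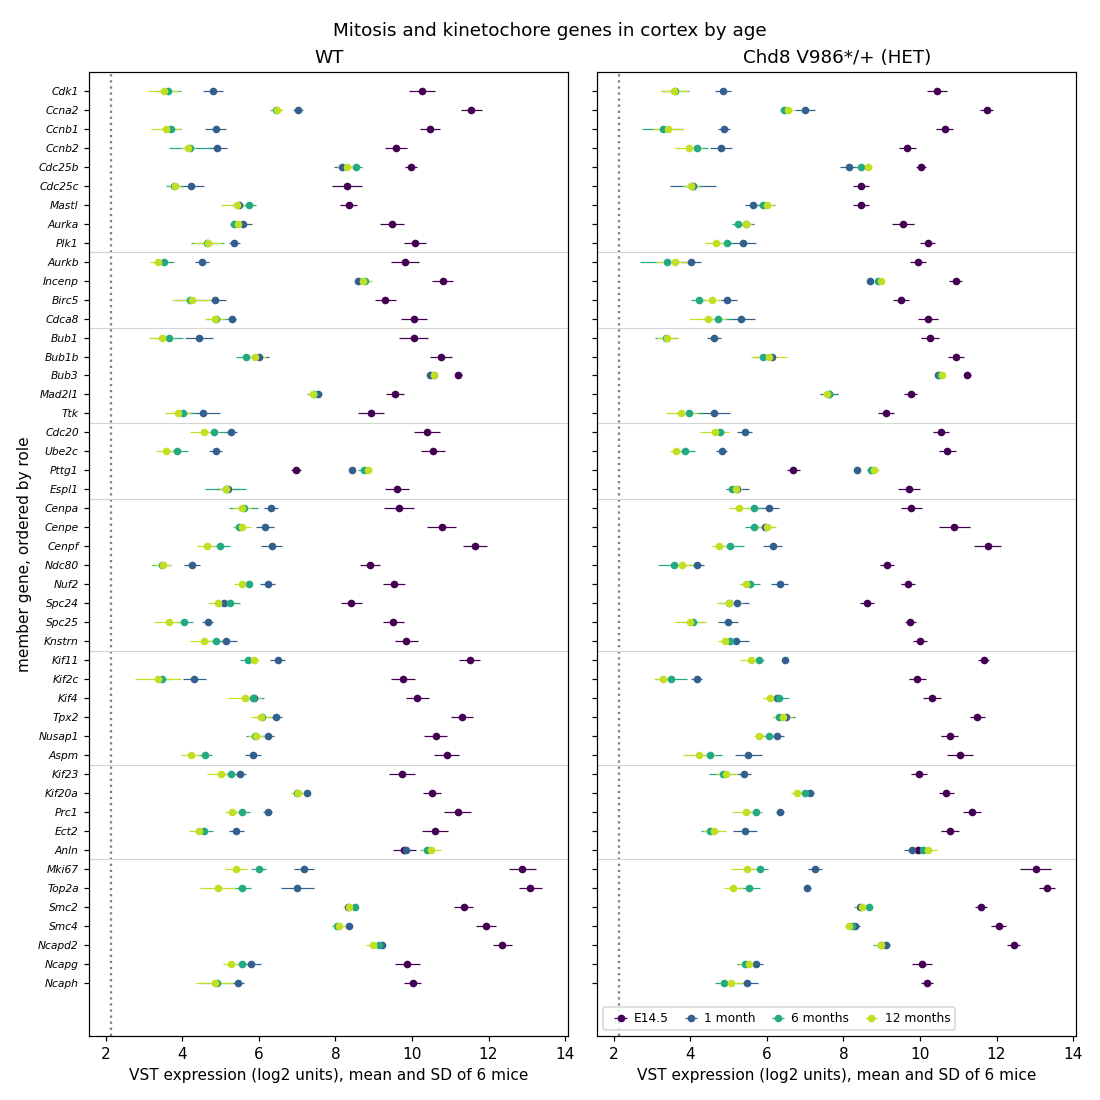
VST expression (log2 units, horizontal axis) of each of the 48 members, ordered by role with grey lines between roles, as mean and SD of 6 mice at each age (colours) in WT (left) and Chd8 V986*/+ mice (right). The dotted line marks the floor at 2.14. E14.5 points stand to the right of the adult points for all members other than Pttg1 and Anln.

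**Figure D3:**
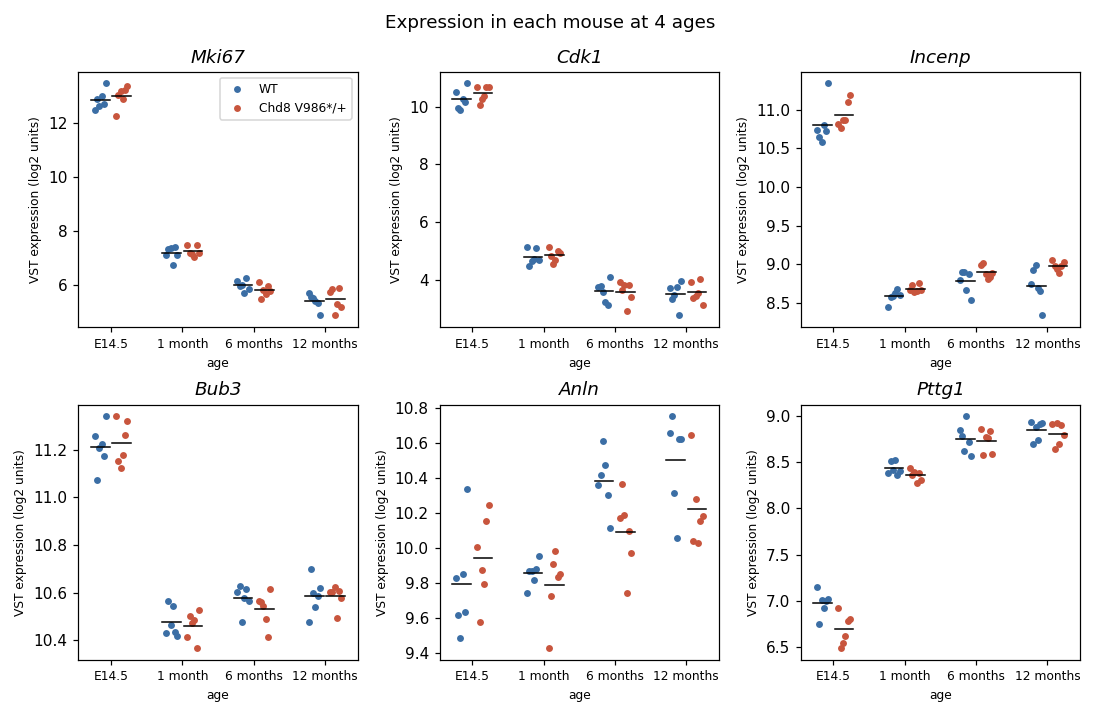
VST expression (log2 units, vertical axis) of Mki67, Cdk1, Incenp, Bub3, Anln and Pttg1 in each mouse at 4 ages, WT in blue and Chd8 V986*/+ in red, with a black line at the mean of 6 mice. The vertical axes differ between genes and do not start at 0. Mki67 and Cdk1 stepped down after E14.5, Bub3 moved by less than 1 unit and Pttg1 stepped up.

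Genes of the same machinery outside the 48 members, from lists of related genes, fell to different depths. In WT cortex 31 of 32 other spindle and cytokinesis genes fell, with a median difference of −3.82, among them the spindle motor Kif15 (−5.40) and the spindle assembly gene Dlgap5 (−5.25), and the citron kinase gene Cit rose (2.38). Of 31 other kinetochore and centromere genes, 30 fell (median −2.31), led by Knl1, the scaffold of the outer kinetochore (−5.47), and by the centromere cohesion gene Sgol1 (−4.93), while Zwint rose (1.5). The 13 genes listed for the anaphase-promoting complex, its activator Fzr1 included, all fell, with a median of −0.90, and 11 of 12 cohesin and condensin II genes fell, with a median of −1.13. Over all genes 42.3% fell and 43.4% rose, and the median of those that fell was −0.86, near the medians of these 2 lists. Among 23 regulators of mitotic genes 19 fell and 3 rose (median −1.10). Foxm1 and Mybl2, which activate late cell cycle genes, changed by −4.47 and −4.41, the repressor E2f7 by −4.95, and Rbl2, which encodes the DREAM subunit p130, rose by 0.64.

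Markers of dividing embryonic cells moved in the same direction over this interval. All 6 intermediate progenitor markers fell in WT cortex, from a list mean of 10.21 to 11.08 per embryo to 6.02 to 6.64 per mouse at 1 month, and 7 of 8 radial glia markers fell while 1 rose. All 6 oligodendrocyte precursor markers rose, from a list mean of 8.11 at E14.5 to 10.84 at 1 month (all genes, 42.3% fell and 43.4% rose). The part of these cell types in the fall of the members was not tested.

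Between 1 and 6 months expression fell further in most members. In WT cortex 30 of 48 fell, 6 rose and 12 were not called, against 12.3% of all genes that fell and 12.3% that rose, and the median difference was −0.46 against 0.0063 over all genes. In Chd8 V986*/+ cortex 26 fell, 5 rose and 17 were not called (all genes, 12.8% fell and 14% rose), with a median of −0.48. The members that fell in both genotypes numbered 24, of the 30 in WT and the 26 in Chd8 V986*/+ mice. The 1-month mice also served in the comparison with E14.5, so the falls over the 2 intervals share samples. In WT, 20 members had all 6-month mice below all 1-month mice (all genes, 4.76%), and in Chd8 V986*/+, 15 did (all genes, 4.89%).

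Top2a, at 5.29 to 5.91 (median 5.57) in WT mice at 6 months, changed by −1.45 (SE 0.17, limma adjp = 2.5e-05) in WT and by −1.53 (SE 0.13, limma adjp = 7.5e-07) in Chd8 V986*/+ mice. Mki67 fell to 5.72 to 6.28 (median 5.98) in WT and 5.47 to 6.12 (median 5.82) in Chd8 V986*/+ mice, with differences of −1.19 and −1.44. Neither gene showed overlap between the ages. Cdk1 reached 3.15 to 4.11 (median 3.68) in WT mice, a difference of −1.19 (SE 0.19, limma adjp = 3.3e-04), and Ccnb1 changed by −1.16 in WT and −1.61 in Chd8 V986*/+ mice. In WT mice Cenpf and Aspm changed by −1.35 and −1.25, Ube2c by −1.01, Aurkb by −0.98, Ect2 by −0.86, Bub1 by −0.79, Ndc80 and Kif11 by −0.78 each, Cenpa by −0.71, Plk1 by −0.70, Birc5 by −0.65 and Smc4 by −0.33. Bub1 changed by −1.25 in Chd8 V986*/+ mice. For Aurkb and Smc4 the Chd8 V986*/+ differences were −0.64 (SE 0.27, limma adjp = 0.12) and −0.09 (SE 0.08, limma adjp = 0.51). The difference between genotypes in these age effects was not tested for this interval.

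Pttg1, Anln, Cdc25b, Incenp and Smc2 rose between 1 and 6 months in both genotypes, and Bub3 in WT. Anln rose by 0.52 (SE 0.07, limma adjp = 4.4e-05) in WT, where all 6-month mice lay above all 1-month mice (as in 3.71% of all genes), and by 0.30 (SE 0.10, limma adjp = 0.039) in Chd8 V986*/+ mice, where the ages overlapped. Pttg1 rose by 0.32 (SE 0.07, limma adjp = 0.0044) and 0.37 (SE 0.06, limma adjp = 4.9e-04), without overlap in either genotype (6-month mice all above in 4.47% of all genes in Chd8 V986*/+). Cdc25b rose by 0.37 and 0.32, Incenp by 0.20 and 0.22, and Smc2 by 0.17 and 0.21, in WT and Chd8 V986*/+ mice respectively. Bub3 rose in WT by 0.10 (SE 0.04, limma adjp = 0.095) and differed by 0.07 (SE 0.04, limma adjp = 0.26) in Chd8 V986*/+ mice. Its WT call was lost with robust variance estimates (limma adjp = 0.10), with read depth as a covariate (0.16) and in a fit of all 48 mice (0.12), where that of Incenp was lost too (0.14). Mastl differed by 0.26 (SE 0.13, limma adjp = 0.17) and 0.27 (SE 0.15, limma adjp = 0.23).

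Markers of the oligodendrocyte lineage fell over the same interval. In WT cortex all 6 precursor markers fell, with list means of 10.63 to 11.02 at 1 month and 10.19 to 10.25 at 6 months, and all 5 oligodendrocyte markers fell, with list means of 13.93 to 14.31 and 13.15 to 13.39. Gpr17, a marker of precursors that are differentiating, changed by −1.60, and Pdgfra by −0.29. In Chd8 V986*/+ cortex 3 of 6 precursor markers fell, with Gpr17 at −1.43 and Pdgfra at −0.13 (SE 0.09, limma adjp = 0.31), and all 5 oligodendrocyte markers fell. Intermediate progenitor markers, a list named after cells of embryonic cortex, had list means of 6.41 and 6.43 in WT at the 2 ages. The part of these cells in the change of the members was not tested. Other spindle and cytokinesis genes fell in 14 of 32 cases in WT and in 14 of 32 in Chd8 V986*/+ mice, other kinetochore and centromere genes in 1 and 5 of 31, and cohesin and condensin II genes fell in 0 of 12 and rose in 4 and 5. Over all genes 12.3% fell and 12.3% rose in WT, and 12.8% fell and 14% rose in Chd8 V986*/+ mice.

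Between 6 and 12 months no member was called by limma in WT mice (background 0.00579% of all genes, lowest adjp 0.68). None was called in Chd8 V986*/+ mice either (background 3.43%, lowest adjp 0.19). In WT, 5 members had an unadjusted limma p under 0.05, against 1167 of 17283 genes tested. In Chd8 V986*/+ mice 7 members did, against 2744 of 17254 genes tested. The members had a median difference of −0.10 in WT (all genes, −0.0096) and of −0.02 in Chd8 V986*/+ mice (all genes, −0.0021). Top2a had the most negative WT difference, at −0.62 (SE 0.19, limma adjp = 0.72), with 12-month mice at 4.19 to 5.50 (median 4.88). Mki67 differed by −0.59 (SE 0.14, limma adjp = 0.68) in WT and −0.33 (SE 0.17, limma adjp = 0.38) in Chd8 V986*/+ mice. In WT, Spc25, Aspm and Cenpf differed by −0.39, −0.37 and −0.35, and the most positive differences were those of Bub1b, Kif11, Anln, Cenpe and Pttg1, at 0.23, 0.15, 0.12, 0.10 and 0.09. In Chd8 V986*/+ mice, Top2a and Cenpa differed by −0.40 (SE 0.16, limma adjp = 0.21) and −0.39 (SE 0.14, limma adjp = 0.19), Aspm and Cenpf by −0.28 and −0.28, and Birc5, Cenpe, Ndc80, Aurka and Ncaph by 0.34, 0.32, 0.22, 0.21 and 0.20.

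Across E14.5, 1, 6 and 12 months, mean VST levels (± SD, n = 6 per group) were taken for the members named at every age. Mki67 lay at 12.89 ± 0.35, 7.18 ± 0.25, 5.99 ± 0.20 and 5.41 ± 0.29 in WT and 13.02 ± 0.40, 7.25 ± 0.18, 5.81 ± 0.22 and 5.49 ± 0.41 in Chd8 V986*/+ mice. Top2a lay at 13.09 ± 0.29, 7.004 ± 0.43, 5.55 ± 0.24 and 4.93 ± 0.47 in WT and 13.31 ± 0.21, 7.06 ± 0.10, 5.53 ± 0.29 and 5.13 ± 0.25 in Chd8 V986*/+ mice. Cdk1 lay at 10.26 ± 0.34, 4.81 ± 0.26, 3.62 ± 0.36 and 3.51 ± 0.42 in WT and 10.45 ± 0.26, 4.86 ± 0.21, 3.60 ± 0.37 and 3.59 ± 0.34 in Chd8 V986*/+ mice. All 3 genes kept a mean above the floor at every age, and at 12 months their genotype means differed by less than 0.2. Ccnb1 stood at 10.47 ± 0.27, 4.87 ± 0.27, 3.71 ± 0.25 and 3.57 ± 0.38 in WT and 10.64 ± 0.22, 4.89 ± 0.15, 3.28 ± 0.54 and 3.42 ± 0.40 in Chd8 V986*/+ mice. For Plk1 the means were 10.08 ± 0.28, 5.36 ± 0.14, 4.65 ± 0.43 and 4.66 ± 0.37 in WT and 10.20 ± 0.20, 5.37 ± 0.34, 4.95 ± 0.17 and 4.68 ± 0.30 in Chd8 V986*/+ mice. Aurkb had means of 9.82 ± 0.35, 4.51 ± 0.18, 3.53 ± 0.26 and 3.36 ± 0.20 in WT and 9.95 ± 0.21, 4.03 ± 0.26, 3.39 ± 0.70 and 3.59 ± 0.48 in Chd8 V986*/+ mice. From 1 month on these 3 genes lay between 3.28 and 5.37 on average, within a few units of the floor.

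Bub1 averaged 10.04 ± 0.37, 4.44 ± 0.38, 3.65 ± 0.38 and 3.46 ± 0.33 in WT and 10.27 ± 0.24, 4.63 ± 0.18, 3.38 ± 0.29 and 3.40 ± 0.28 in Chd8 V986*/+ mice. Levels of Cenpa were 9.66 ± 0.38, 6.32 ± 0.18, 5.61 ± 0.38 and 5.56 ± 0.24 in WT and 9.77 ± 0.28, 6.05 ± 0.27, 5.67 ± 0.22 and 5.28 ± 0.27 in Chd8 V986*/+ mice. Ndc80 reached 8.91 ± 0.27, 4.25 ± 0.21, 3.47 ± 0.24 and 3.49 ± 0.22 in WT and 9.14 ± 0.17, 4.16 ± 0.20, 3.58 ± 0.43 and 3.80 ± 0.26 in Chd8 V986*/+ mice. All 3 were lowest in adults, with falls given above. In the case of Kif11 they were 11.51 ± 0.28, 6.49 ± 0.19, 5.71 ± 0.19 and 5.86 ± 0.13 in WT and 11.66 ± 0.15, 6.48 ± 0.07, 5.81 ± 0.12 and 5.58 ± 0.29 in Chd8 V986*/+ mice. Birc5 measured 9.30 ± 0.28, 4.85 ± 0.28, 4.20 ± 0.37 and 4.24 ± 0.52 in WT and 9.51 ± 0.20, 4.96 ± 0.25, 4.22 ± 0.20 and 4.56 ± 0.25 in Chd8 V986*/+ mice. The Ect2 means were 10.60 ± 0.33, 5.42 ± 0.20, 4.56 ± 0.26 and 4.43 ± 0.25 in WT and 10.78 ± 0.23, 5.42 ± 0.31, 4.53 ± 0.25 and 4.63 ± 0.31 in Chd8 V986*/+ mice. For all 3 the step between E14.5 and 1 month was larger than every later step. Smc4 had 11.93 ± 0.26, 8.36 ± 0.08, 8.04 ± 0.09 and 8.09 ± 0.22 in WT and 12.06 ± 0.19, 8.30 ± 0.14, 8.21 ± 0.16 and 8.15 ± 0.06 in Chd8 V986*/+ mice. Bub3 stood at 11.21 ± 0.09, 10.48 ± 0.06, 10.58 ± 0.05 and 10.59 ± 0.07 in WT and 11.23 ± 0.09, 10.46 ± 0.06, 10.53 ± 0.07 and 10.59 ± 0.05 in Chd8 V986*/+ mice.

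The members stayed above the filter of 0.5 over the floor in each of the 8 groups taken alone, so none passed through its high group only. Expression within 2 units of the floor, where VST differences understate change, was found for 0 members at E14.5, at 1 month for 0 in WT and for 2 in Chd8 V986*/+ cortex (Cdc25c and Aurkb, the lowest, at 1.88 above the floor), for 10 in each genotype at 6 months and, at 12 months, for 10 in WT and 11 in Chd8 V986*/+ cortex.

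At E14.5 no member passed the threshold between Chd8 V986*/+ and WT cortex with limma (background 0.00593% of all genes, lowest adjp 0.98). An unadjusted limma p under 0.05 was found for 2 of 48 members, against 769 of 16877 genes tested. The difference was positive in 47 of 48 members, with a median of 0.16, against 50.4% of all genes positive and a median of 0.0010. Within replicates 1 to 3 and within replicates 4 to 6 it was positive in 47 members each, with medians of 0.19 and 0.11. These sets are parts of the same embryos, so their values restate the difference above and are not separate evidence. The members varied together between embryos, with WT replicate 6 highest of its group in 47 of 48. Counts of members with 1 sign are therefore not counts of separate results. Smc2 differed by 0.24 (SE 0.11, limma adjp = 0.98) and Spc25 by 0.23 (SE 0.12, limma adjp = 0.98). Top2a, Mki67 and Cdk1 differed by 0.22, 0.13 and 0.19, Bub1, Ndc80 and Birc5 by 0.22, 0.24 and 0.20, and Bub3 by 0.02. Ccnb1, Kif11 and Ect2 differed by 0.17, 0.16 and 0.18, and Plk1, Aurkb, Cenpa and Smc4 by 0.12, 0.13, 0.11 and 0.12.

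Pttg1 alone had a lower mean in Chd8 V986*/+ embryos, at 6.49 to 6.92 (median 6.70) against 6.75 to 7.15 (median 7.004) in WT, a difference of −0.28 (SE 0.10, limma adjp = 0.98). The ranges overlapped. Its difference was −0.31 within replicates 1 to 3 and −0.25 within replicates 4 to 6. These sets are parts of the embryos in which Pttg1 was singled out, so they are not separate evidence. In a fit of all 48 mice Pttg1 was called (limma adjp = 0.070), and the share of all genes called there was not taken. The standard errors of single members had a median of 0.13, close to the size of the median difference.

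The mean VST of the 48 members in single embryos was 10.24, 10.04, 10, 10.31, 10.15 and 10.76 in WT replicates 1 to 6 and 10.34, 10.19, 10.30, 10.29, 10.58 and 10.68 in Chd8 V986*/+ replicates 1 to 6. The genotypes overlapped, and WT replicate 6 was the highest of all 12 embryos. It had the highest WT value in 47 of 48 members, and Chd8 V986*/+ replicate 6 had the highest Chd8 V986*/+ value in 42. Without WT replicate 6 the median difference was 0.27, without WT replicate 3 it was 0.10 and without Chd8 V986*/+ replicate 6 it was also 0.10.

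Region markers differed in mean between the genotypes at E14.5, but the embryos of the genotypes overlapped in each list mean. Over all genes 50.4% had a positive difference. The 13 midbrain, hindbrain and spinal cord markers were all lower in Chd8 V986*/+ than in WT embryos, with none called, at a list mean of 4.71, 6.44, 6.43, 5.58, 7.71 and 3.88 in WT replicates 1 to 6 and 3.98, 4.06, 5.67, 4.78, 4.75 and 4.52 in Chd8 V986*/+ replicates 1 to 6. WT replicate 6, with the highest member mean, had the lowest mean of these markers. Their list mean, added to the model as a covariate, gave a median difference of the members of 0.0011 in place of 0.16. That list mean itself differed between genotypes (5.79 in WT and 4.63 in Chd8 V986*/+), so this fit cannot tell the genotype from the markers, and the part of the marked regions was not tested. All 6 ganglionic eminence markers were higher in Chd8 V986*/+ embryos, with list means of 9.90 to 10.57 in WT and 10.17 to 10.44 in Chd8 V986*/+, and none was called. Intermediate progenitor list means were 10.21 to 11.08 and 10.39 to 10.93, and neuron list means 13.43 to 13.68 and 13.55 to 13.97. All 8 blood markers were lower in Chd8 V986*/+ embryos, with list means of 8.75 to 10.32 in WT and 8.91 to 9.58 in Chd8 V986*/+, and none was called. In all, 3 of the 13 midbrain, hindbrain and spinal cord markers were under the filter in Chd8 V986*/+ embryos.

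**Figure D4:**
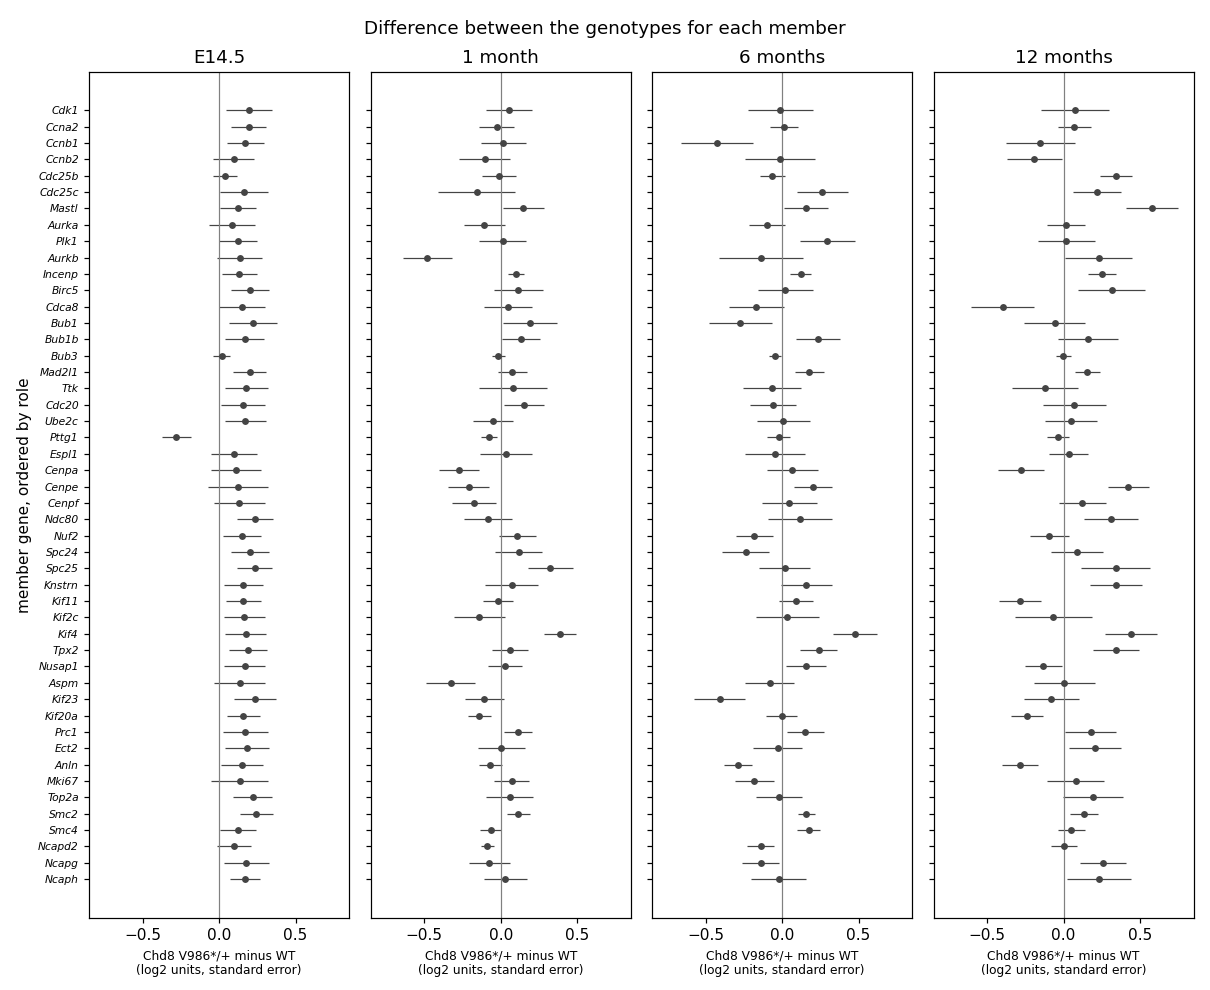
Difference in VST expression between Chd8 V986*/+ and WT cortex (log2 units, horizontal axis) for each member, ordered by role, at 4 ages, with the SE of the limma fit as bars. At E14.5, 47 of 48 points lie to the right of 0 by at most 0.24, and none passed the threshold at any age.

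**Figure D5:**
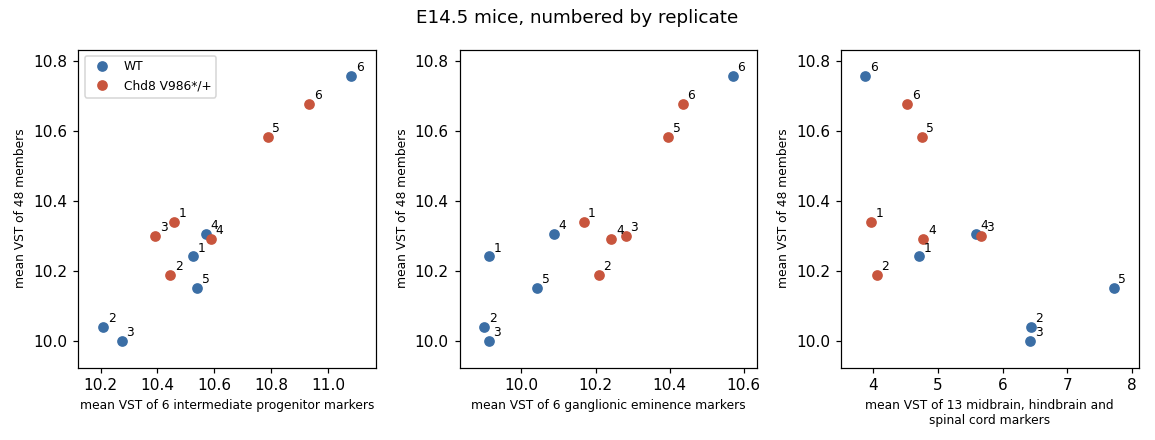
Mean VST of the 48 members (vertical axis) in each E14.5 embryo, numbered by replicate, WT in blue and Chd8 V986*/+ in red, against the mean VST (horizontal axes) of intermediate progenitor markers, ganglionic eminence markers and midbrain, hindbrain and spinal cord markers. WT replicate 6, at 10.76, has the highest member mean and the lowest mean of midbrain, hindbrain and spinal cord markers, at 3.88.

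At 1 month no member was called between the genotypes by limma (background 0.139% of all genes, lowest adjp 0.28). Only 3 members had an unadjusted limma p under 0.05, against 1515 of 17221 genes tested. The median difference was 0.015, with 26 members positive, against 48.6% of all genes. Kif4, a motor that binds chromosome arms and the central spindle, ranged over 5.57 to 6.06 (median 5.92) in WT and 6.15 to 6.40 (median 6.22) in Chd8 V986*/+ mice. It was the 1 member whose Chd8 V986*/+ mice all lay above the WT mice (all genes, 0.383%), with a difference of 0.39 (SE 0.11, limma adjp = 0.28). Aurkb and Spc25 differed by −0.48 (SE 0.16, limma adjp = 0.39) and 0.32 (SE 0.15, limma adjp = 0.55). Of the other members followed at every age, Bub1 differed by 0.19 and Cenpa by −0.27, while the differences of Birc5, Plk1, Top2a, Cdk1, Mki67, Smc4, Ndc80, Ccnb1, Kif11, Ect2 and Bub3 lay between −0.08 and 0.11.

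At 6 months no member was called (limma, background 0.0927% of all genes, lowest adjp 0.41). There were 5 members with an unadjusted limma p under 0.05, against 1310 of 17256 genes tested. The difference was positive in 23 members, against 49.6% of all genes, with a median of −0.0077. Kif4 had the lowest p, at 5.44 to 6.13 (median 5.91) in WT and 5.87 to 6.61 (median 6.37) in Chd8 V986*/+ mice, a difference of 0.48 (SE 0.15, limma adjp = 0.41). Anln differed by −0.29 (SE 0.09, limma adjp = 0.44) and Smc2 by 0.16 (SE 0.05, limma adjp = 0.50). The genotypes overlapped in all 3 genes. Ccnb1 and Plk1 differed by −0.43 (SE 0.24, limma adjp = 0.73) and 0.30 (SE 0.18, limma adjp = 0.77), and Bub1, Mki67, Smc4, Aurkb and Ndc80 by −0.27, −0.18, 0.17, −0.14 and 0.11. The differences of Kif11, Cenpa, Birc5, Cdk1, Top2a, Ect2 and Bub3 lay between −0.05 and 0.09. All 5 oligodendrocyte markers had lower means in Chd8 V986*/+ mice (list means 12.86 to 13.19, against 13.15 to 13.39 in WT), with none called, and their part in these values was not tested.

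At 12 months the median difference was 0.073, with 32 of 48 members positive, against 51.4% of all genes positive and a median of 0.0046. Again no member was called by limma (background 0.0463% of all genes, lowest adjp 0.25). Of the 48 members 9 had an unadjusted limma p under 0.05, against 2000 of 17288 genes tested. Mastl ranged over 4.89 to 6.01 (median 5.48) in WT and 5.78 to 6.21 (median 6.06) in Chd8 V986*/+ mice and differed by 0.58 (SE 0.17, limma adjp = 0.25). Cdc25b, at 7.88 to 8.64 (median 8.33) and 8.51 to 8.77 (median 8.65), differed by 0.34 (SE 0.10, limma adjp = 0.26), and Cenpe by 0.42 (SE 0.13, limma adjp = 0.28). The genotypes overlapped in all 3 genes. Ndc80, Birc5, Aurkb, Ect2 and Top2a differed by 0.31, 0.31, 0.23, 0.21 and 0.19, Kif11, Cenpa and Ccnb1 by −0.29, −0.28 and −0.15, and Mki67, Cdk1, Smc4, Plk1, Bub3 and Bub1 by values between −0.06 and 0.08. Mastl and Cdc25b were called in a fit of all 48 mice (limma adjp = 0.036 and 0.081), and 2 members were called without WT replicate 3. The share of all genes called in these 2 fits was not taken. In the same mice, 5 of 6 intermediate progenitor markers and 4 of 8 radial glia markers had higher means in Chd8 V986*/+ cortex. None was called. Both lists are named after dividing cells of embryonic cortex, and which cells express these genes at 12 months was not examined. Intermediate progenitor list means were 6.03 in WT (5.91 to 6.30 per mouse) and 6.52 in Chd8 V986*/+ (5.89 to 7.16). Those of radial glia were 9.47 (9.34 to 9.60) and 9.61 (9.38 to 9.997), so the genotypes overlapped in both lists. How these marker values relate to the differences of the members was not tested.

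Kif4 had a higher mean in Chd8 V986*/+ mice at all 4 ages, by 0.17, 0.39, 0.48 and 0.44, and was called at none. Anln was lower in Chd8 V986*/+ mice at 1, 6 and 12 months (−0.07, −0.29 and −0.28) and higher at E14.5 (0.15). These genes were singled out after their values were seen. The difference of the genotype effect between E14.5 and each later age was tested in 1 limma fit of all 48 mice. No member was called against 1 month (background 0%, lowest adjp 0.999), 6 months (0%, 0.78) or 12 months (0.0635%, 0.26). An unadjusted limma p under 0.05 was found for 2, 5 and 7 of 48 members, against 796, 880 and 1990 of 17311 genes tested. None of the genes in the 5 lists of related genes was called between genotypes at any age, with a lowest limma adjp of 0.16 at 6 months.

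In the GENCODE annotation of mm9, the build of the deposited table, 47 members were found by name. Exons of 9 members (Ccna2, Cdc20, Cdc25b, Cdca8, Kif20a, Kif4, Ncapg, Nusap1 and Ube2c) overlap an exon of a gene on the other strand, and Top2a overlaps a small RNA gene on its own strand. Unless strand was used in the counting, reads from the stretch shared with the opposite gene cannot be told apart. The length of these stretches was not measured. Kif4 and Cdc25b, singled out above, are among these 9 members.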

How the data were processed

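Cortical poly(A) RNA of 48 mice was sequenced. The authors filtered and trimmed the reads, aligned them to mm9 with STAR 2.5.2b and quantified them with Salmon 0.11.3 (versions from the submitters' processing notes). The authors deposited log2-scale VST values from DESeq2, processed after a correction for batch, for 24444 genes. The batch is not named in the sources used here. The methods describe stranded KAPA libraries and the labels a TruSeq kit. Counts were not used here, so the depth behind single genes is unknown and precision is given by the spread of 6 mice.

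Samples were grouped by the genotype, age and replicate number of their labels. Genes with a mean at least 0.5 above the floor (2.14, the most frequent value, 15.7% of values, with 6.05% below) over the 12 mice compared were tested with limma 3.58.1 in R 4.3.3, with an intensity trend. Genes with adjp under 0.1 over all genes tested were called. The fits were tested on simulated data. The members, roles, marker lists and lists of related genes were chosen with earlier results of these data known. Genes named at every age are Mki67, Cdk1, Ccnb1, Aurkb, Plk1, Bub1, Bub3, Cenpa, Ndc80, Kif11, Birc5, Ect2, Top2a and Smc4. Added to these are the 3 members with the lowest p in each genotype comparison, the 5 with the largest fall and the 5 with the largest rise or smallest fall in each age comparison, and up to 3 per list of related genes. Other members are given by role.

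Alternatives were a replicate block, 1 fit of all 48 mice, no filter or a filter at 1.5, no trend, robust variances, quantile normalization, centring on the median gene, the set of replicates, read depth or region markers as covariates, a threshold of 0.05 and leaving out each mouse. Leaving out WT E14.5 replicates 5 and 6 together was chosen after seeing the data. Promoter sequences are from RefSeq (GRCm38.p6), and no coordinates were converted between builds. Python 3.11.15, numpy 2.4.6, pandas 2.3.3 and matplotlib 3.10.9 were used.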

Additional observations from a re-analysis of the deposited data

Results flagged for a closer look

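Single mice that stood apart from the other 5 of their group were looked for in the 20 genes examined and the mean of the members, in 168 groups in all, by the gap to the nearest mouse divided by the range of the group (Dixon's ratio above its critical value). About 1 in 20 groups meets this by chance, and 11 were found. At E14.5, WT replicate 6 was apart in Plk1 (10.63, above the 9.83 to 10.08 of the other 5) and in Incenp (11.34, above the 10.58 to 10.80 of the other 5).

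Among WT adults, Birc5 at 1 month was 5.41, above the 4.65 to 4.84 of the other 5 in replicate 5. At 6 months, replicate 5 had Bub1 at 2.89, below the 3.74 to 3.89 of the other 5, and Cdc25b at 8.84, above the 8.42 to 8.50 of the other 5. Cenpa in replicate 3 of that group was 6.35, above the 5.34 to 5.67 of the other 5. At 12 months, replicate 2 had Kif11 at 6.12, above the 5.73 to 5.87 of the other 5, and Birc5 at 3.24, below the 4.19 to 4.62 of the other 5.

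In Chd8 V986*/+ mice, Top2a was 6.08, above the 5.31 to 5.57 of the other 5 in replicate 1 at 6 months. At 12 months Aurkb was 4.52, above the 3.17 to 3.57 of the other 5 in replicate 5, and Bub3 was 10.495, below the 10.58 to 10.62 of the other 5 in replicate 4.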

How the results depend on the processing

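The number of members called between genotypes moved in 3 cases, under 2 alternatives. In 1 fit of all 48 mice it was 1 at E14.5 (Pttg1) and 2 at 12 months (Mastl and Cdc25b), and without WT replicate 3 it was 2 at 12 months. Under the alternatives the share of all genes called was not taken, so these numbers have no background. The other 418 values of the main comparisons counted as unmoved. Numbers called changed by at most 1.5 times, and medians by less than the spread. That spread is the SD of the member means in the WT or earlier group, 0.27 in WT at E14.5. It exceeds the median genotype difference at E14.5, so the much smaller value with region markers as a covariate also counted as unmoved. Medians near 0 could change sign within it. Of 2590 values for single named genes 8 gained a call, 12 lost one and none that was called changed sign. When each mouse was left out in turn, the number of members called from E14.5 to 1 month was 47 to 48 in both genotypes, with Anln added without WT E14.5 replicate 6 and without Chd8 V986*/+ E14.5 replicate 2, and that between genotypes was 0 at E14.5, 1 month and 6 months and 0 to 2 at 12 months. The median of the members then ranged from −4.58 to −4.44 in WT and from −4.75 to −4.67 in Chd8 V986*/+ mice for age, and from 0.10 to 0.27, −0.027 to 0.041, −0.049 to 0.024 and 0.038 to 0.12 between genotypes at the 4 ages. Without WT E14.5 replicates 5 and 6 together it was 0.26. Leaving out single mice was not run from 1 to 6 or from 6 to 12 months.

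Same-numbered WT and Chd8 V986*/+ mice had a mean correlation of their deviations of 0.23 at E14.5 (over 0.1 in 4 of 6 numbers, 4 of 6 closest to their own number) and of 0.018, 0.045 and −0.034 at 1, 6 and 12 months. Since at no age did every pair exceed 0.1, the numbers were not taken as pairs. With a replicate block no member was called between genotypes at any age, and from 1 to 6 months 35 were called in WT and 32 in Chd8 V986*/+ mice. The share of all genes called with this block was not taken.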
